A study of Mus musculus with 32 samples.

Results

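The genes described here encode the replication-dependent core histones H2A, H2B, H3 and H4 and the linker histones H1 of the mouse. They were chosen by name: symbols of the pattern Hist1h to Hist4h followed by 1, 2a, 2b, 3 or 4 in the GENCODE M21 naming, without pseudogenes, and with a mean count of at least 10 in both the CH12F3 and the spleen count table. This gave 60 members of 43345 mouse genes, of which 5 encode H1, 17 H2A, 13 H2B, 12 H3 and 13 H4. On chromosome 13 lie 49 members (the Hist1 cluster), on chromosome 3 lie 9 (Hist2), and Hist3h2a on chromosome 11 and Hist4h4 on chromosome 6 are the sole members of their clusters. No difference between genotypes or days was a criterion, though earlier results of these data were known. The limit on counts in both tables leaves out genes that were low in 1 system.

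Most histone protein is made during S phase, when newly copied DNA has to be packed into nucleosomes. Core histones form the protein octamer of the nucleosome, and H1 binds the DNA that enters and leaves it. Messages of these genes end in a conserved stem-loop in place of a poly(A) tail, the stem-loop is bound by the protein SLBP, and the messages are degraded when DNA synthesis stops. Some members, among them Hist1h1c, Hist1h2bc, Hist2h2be, Hist3h2a and Hist4h4, also have described polyadenylated transcripts. In activated B cells, which divide fast before and while they switch isotype, these messages are abundant.

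RNA was sequenced in 32 libraries from stimulated mouse B cells that had or lacked ELOF1, an elongation factor of RNA polymerase II. CH12F3 is a B lymphoma line, here stimulated with α-CD40, IL4 and TGF-β. Elof1-knockout cells of this line had received an empty vector (Elof1-KO +Vector, called vector) or ELOF1 (Elof1-KO +ELOF1, called ELOF1). Both genotypes have 4 libraries of day 1.5, 2 of day 3 and 2 of day 7. All CH12F3 groups therefore carry the knockout, and the ELOF1 group is a rescue and not an unedited line. Spleen B cells of conditional knockout (Elof1-cKO, called cKO) and wild-type (WT) mice were stimulated with IL4 and LPS. Both genotypes have 5 libraries of day 2.5 and 3 of day 3.5. No source used here gives the Cre driver, the number of knockout clones or the age of the mice. The labels do not say whether libraries of a group came from separate cultures or animals, so p-values measure the spread between these libraries, which may be technical.

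Ribosomal RNA was depleted and no poly(A) selection was made, so histone messages without a tail could enter the counts. The 60 genes took 0.869% to 1.34% of the mouse counts in CH12F3 libraries (median 1.17%) and 0.960% to 1.89% in spleen libraries (median 1.48%). Of the 10 symbols of the pattern that are no members, Hist1h2aj, Hist1h2al and Hist3h2bb-ps are pseudogenes. Hist1h1t, Hist1h2aa, Hist1h2ba and Hist3h2ba had a mean count below 10 in at least 1 table. The H2B genes Hist1h2bh, Hist1h2bm and Hist2h2bb have no row in the count tables, so the H2B sums lack them. Just inside the limit were Hist1h2ap, with mean counts of 15.2 in CH12F3 and 19.8 in spleen, and Hist2h2aa1, with 18.6 and 37.0. Just outside were Hist1h2ba, with 9.31 in CH12F3 and 7.31 in spleen, and Hist3h2ba, with 1.88 in CH12F3 and 154.5 in spleen. All 60 members passed the filter on low counts in both systems, so none is missing from a test.

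The stem-loops are shown first because they set how these messages are made and destroyed. The motif searched has 16 bases, with GG and CC at its ends, CTT at positions 5 to 7, T at position 9, AG at positions 11 and 12 and any base elsewhere. It was searched on the transcript strand in the first 100 bases after the stop codon of every protein-coding transcript of GENCODE M21 (GRCm38). Shown are the leading H1, H2B, H3 and H4 genes by level per kb over both systems, Hist3h2a for H2A, and Hist4h4. Hist4h4 also has described polyadenylated transcripts. The motif is in capitals, with 5 bases on each side.
Hist1h1e (chr13:23621777-23621802, minus strand): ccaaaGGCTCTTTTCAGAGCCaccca
Hist3h2a (chr11:58955167-58955192, plus strand): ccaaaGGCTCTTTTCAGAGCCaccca
Hist1h2bg (chr13:23571838-23571863, plus strand): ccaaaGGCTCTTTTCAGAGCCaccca
Hist1h3c (chr13:23745042-23745067, minus strand): aaaaaGGCTCTTTTAAGAGCCaccta
Hist1h4d (chr13:23581945-23581970, plus strand): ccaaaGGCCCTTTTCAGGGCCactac
Hist4h4 (chr6:136803993-136804018, minus strand): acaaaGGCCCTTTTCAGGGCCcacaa

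A match was found in 42 of 60 members (70.0%), against 10 of 21614 protein-coding genes that are no members (0.0463%). By class it was 3 of 5 for H1, 11 of 17 for H2A, 7 of 13 for H2B, 9 of 12 for H3 and 12 of 13 for H4. Of the 18 members without a match, 12 are annotated with fewer than 30 bases after the stop codon, so the window was mostly empty there. Where found, the motif began 22 to 59 bases after the stop codon (median 33). In 41 of the 42 members it lay between the first and last base of the gene as counted, Hist1h3g being the exception. Introns were not taken out of that stretch. The commonest form, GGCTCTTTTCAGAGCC, ended 23 members and was spread over H1 (3), H2A (10), H2B (5) and H3 (5). None of the 12 H4 matches had that form: 7 had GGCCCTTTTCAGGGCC, 2 had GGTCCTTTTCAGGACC, 2 had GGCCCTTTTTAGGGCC and Hist1h4a alone had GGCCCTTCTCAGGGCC. A match is a description of letters and not evidence that SLBP bound there.

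Promoter windows of 300 bases (250 before and 50 after the RefSeq start site, GRCm38.p6) were found for 54 of the 60 members. Each was searched on both strands for 4 short motifs. The TATA box was searched as TATAAA. The CCAAT box was searched as CCAAT. The octamer was searched as ATTTGCAT. The AC box, described in H1 promoters, was searched as AAACACA. The 3 windows printed are from classes that differ in these motifs, and matches are in capitals. The H1 gene Hist1h1b holds a TATA box, CCAAT boxes on both strands and an AC box. The H2B gene Hist1h2bg holds a TATA box, CCAAT boxes on both strands and an octamer. The H4 gene Hist1h4k holds a TATA box alone.
Hist1h1b (chr13:21780576-21780875, minus strand): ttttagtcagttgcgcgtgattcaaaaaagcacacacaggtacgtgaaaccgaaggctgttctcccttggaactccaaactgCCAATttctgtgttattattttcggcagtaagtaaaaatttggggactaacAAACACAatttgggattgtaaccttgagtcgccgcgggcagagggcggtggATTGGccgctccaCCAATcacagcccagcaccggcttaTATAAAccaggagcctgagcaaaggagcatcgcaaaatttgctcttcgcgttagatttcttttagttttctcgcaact
Hist1h2bg (chr13:23571150-23571449, plus strand): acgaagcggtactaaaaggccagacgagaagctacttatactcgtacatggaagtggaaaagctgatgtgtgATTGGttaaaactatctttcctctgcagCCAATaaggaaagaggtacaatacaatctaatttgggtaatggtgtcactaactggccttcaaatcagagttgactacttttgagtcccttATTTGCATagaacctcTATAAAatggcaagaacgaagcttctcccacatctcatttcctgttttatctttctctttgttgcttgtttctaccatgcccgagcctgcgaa
Hist1h4k (chr13:21750504-21750803, minus strand): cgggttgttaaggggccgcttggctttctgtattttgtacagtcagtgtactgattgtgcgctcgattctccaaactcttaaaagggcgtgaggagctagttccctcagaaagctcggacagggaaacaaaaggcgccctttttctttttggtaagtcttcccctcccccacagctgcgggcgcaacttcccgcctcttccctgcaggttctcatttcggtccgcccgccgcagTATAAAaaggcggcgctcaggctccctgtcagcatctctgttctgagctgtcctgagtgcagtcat

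The CCAAT box, bound by the factor NF-Y, was in the window of 45 of 54 members (83.3%) and of 37.4% of all 32851 promoter windows. It was in all 5 H1, 17 H2A, 10 H2B and 10 H3 windows but in 3 of 12 H4 windows. The TATA box was in 32 of 54 members (59.3%) and in 13.6% of all windows. Its place in the window was not a criterion. Relative to the start site, the match began at -28 in Hist1h1b, -16 in Hist1h4k and 21 in Hist1h2ak. The octamer, bound by OCT factors, was in 6 of 17 H2A and 3 of 10 H2B windows and in 1.74% of all windows. Most H2B windows overlap that of an H2A gene on the other strand, as for Hist1h2bg (chr13:23571150-23571449) and Hist1h2ae (chr13:23571171-23571470). The H2A and H2B counts of each motif are therefore not independent. The octamers of Hist1h2bg and Hist1h2bk lie in DNA that is also in the windows of Hist1h2ae and Hist1h2ah. The AC box was in 4 of 5 H1 windows and in 7.18% of all windows. No octamer was found in the H1, H3 or H4 windows, which says only that these letters are not in these 300 bases.

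Members resemble each other in their coding sequence, and no source used here says how reads with several matches were counted. Of all stretches of 50 bases in a member's annotated transcripts, a median of 53.2% also occurred in another gene, and in 31 members the share was 50% or more. H1 genes had a median of 2.25%, H2A genes 78.9%, H2B genes 59.4%, H3 genes 62.0% and H4 genes 39.5%. Hist1h1a and Hist1h1b shared none, Hist1h4k shared 71.5% and Hist1h2ah 90.7%. Values of single core histone genes are therefore uncertain as to which copy gave the reads, and class sums and the H1 genes less so.

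Totals were 7112130 to 15550229 mouse counts per CH12F3 library and 9807560 to 16359477 per spleen library. Levels are in CPM, the depth-scaled count of a gene (its count over the library total after TMM scaling). Elof1 itself was at 1.05 to 5.50 CPM in vector cells and 173 to 681 CPM in ELOF1 cells at day 1.5, and at 1.27 to 5.80 CPM in cKO cells and 10.99 to 55.1 CPM in WT cells at day 2.5, without overlap. The B cell markers Cd79a, Cd79b, Ms4a1 and Pax5 had at least 542 counts in every CH12F3 library and 2366 in every spleen library, while the T, NK and erythroid marker sums were at most 7.09, 0.394 and 1.57 CPM in CH12F3 and at most 1.74, 0.437 and 0.163 CPM in spleen libraries. Library numbers in the labels fall into 2 runs, a first series of 8 libraries and a second of 24. The first series holds replicates 1 and 2 of CH12F3 day 1.5 and replicates 4 and 5 of spleen day 2.5 in both genotypes, and carried 3462 to 11690 CPM of the mitochondrial ribosomal RNA mt-Rnr1, against 28.1 to 178 CPM in the second. Fits carry a term for the series unless an alternative without it is named.

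Before the comparisons, 2 libraries have to be set apart: replicate 5 of spleen day 2.5, in cKO and in WT cells. Their summed histone levels were 10550 CPM for cKO and 9662 CPM for WT cells, while the other 4 libraries had 16680 to 18370 CPM in cKO and 15530 to 19230 CPM in WT cells. The classes differed in this. The H3 sum was 737 CPM in cKO replicate 5, where the other replicates had 3457 to 4286 CPM, and 658 CPM in WT replicate 5, where the others had 3215 to 4885 CPM. The H4 sums of 4264 CPM in cKO and 4028 CPM in WT replicate 5 were near those of the others, at 4557 to 5308 CPM in cKO and 4212 to 5509 CPM in WT cells.

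Member by member, the log2 ratio of replicate 5 to the mean of replicates 1 to 4 (CPM + 0.5) had a median of -2.27 in cKO and -2.47 in WT cells over the H3 genes, and of -1.30 and -1.72 over the H2B genes. It was -0.41 and -0.55 over the H2A genes, -0.36 in both over the H1 genes and 0.02 and -0.17 over the H4 genes, with 0.03 and -0.01 over all genes tested. In both genotypes 11 of 12 H3 genes and 11 of 13 H2B genes were below all 4 other replicates, as were 27.3% of all genes in cKO and 28.6% in WT cells. Hist1h3e, a gene for H3, had 119 CPM in replicate 5 of cKO cells, where the others had 726 to 982 CPM, and 101 CPM in replicate 5 of WT cells, where the others had 651 to 1050 CPM. The other first-series library at that day, replicate 4, did not share the pattern, with H3 sums of 3457 CPM in cKO and 3215 CPM in WT cells. Replicate 5 libraries also held 11690 CPM of mt-Rnr1 in cKO and 8683 CPM in WT cells, where replicate 4 held 6996 and 4572 CPM. For mt-Rnr2 the order was the other way, with 20230 CPM in cKO and 15860 CPM in WT replicate 5 and 20880 and 18980 CPM in replicate 4. The part of these in the low H3 and H2B counts was not tested. Counts of called members in the spleen are given with and without these libraries. The lists of other genes and some single members are given with all libraries only.

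**Figure D1:**
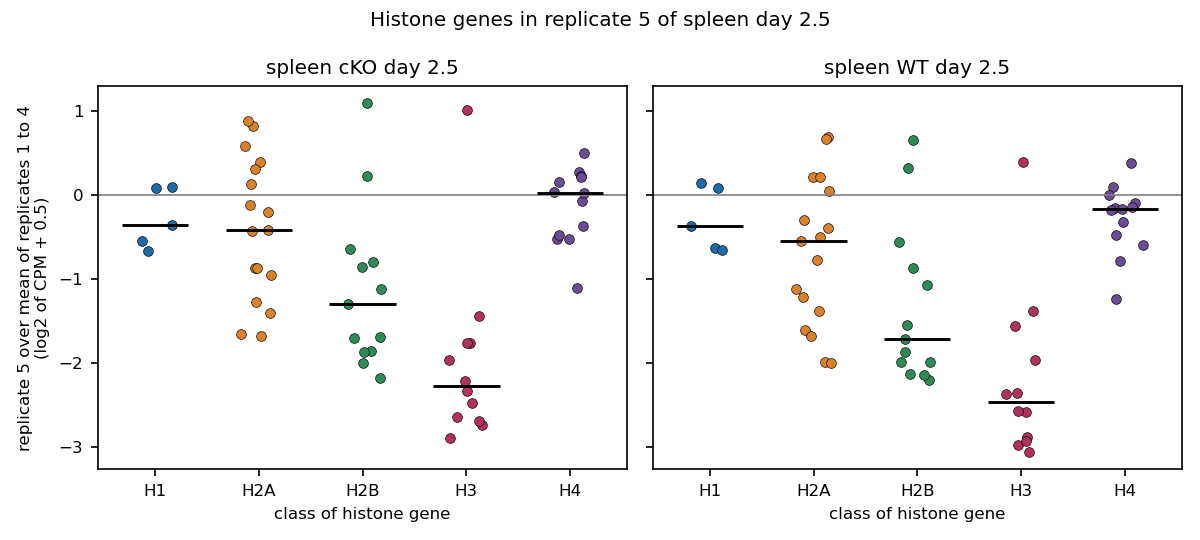
Each point is 1 histone gene, plotted by class on the horizontal axis, with the log2 ratio of its CPM in replicate 5 to the mean of replicates 1 to 4 (spleen day 2.5, CPM + 0.5) on the vertical axis, separately for cKO and WT cells. The H3 and H2B genes lie mostly far below 0, with medians of -2.27 and -1.30 in cKO cells, while the H4 genes lie about 0.

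The plot of class sums by library shows the same 2 libraries as low triangles for H2B and H3, beside the time course of each system.

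**Figure D2:**
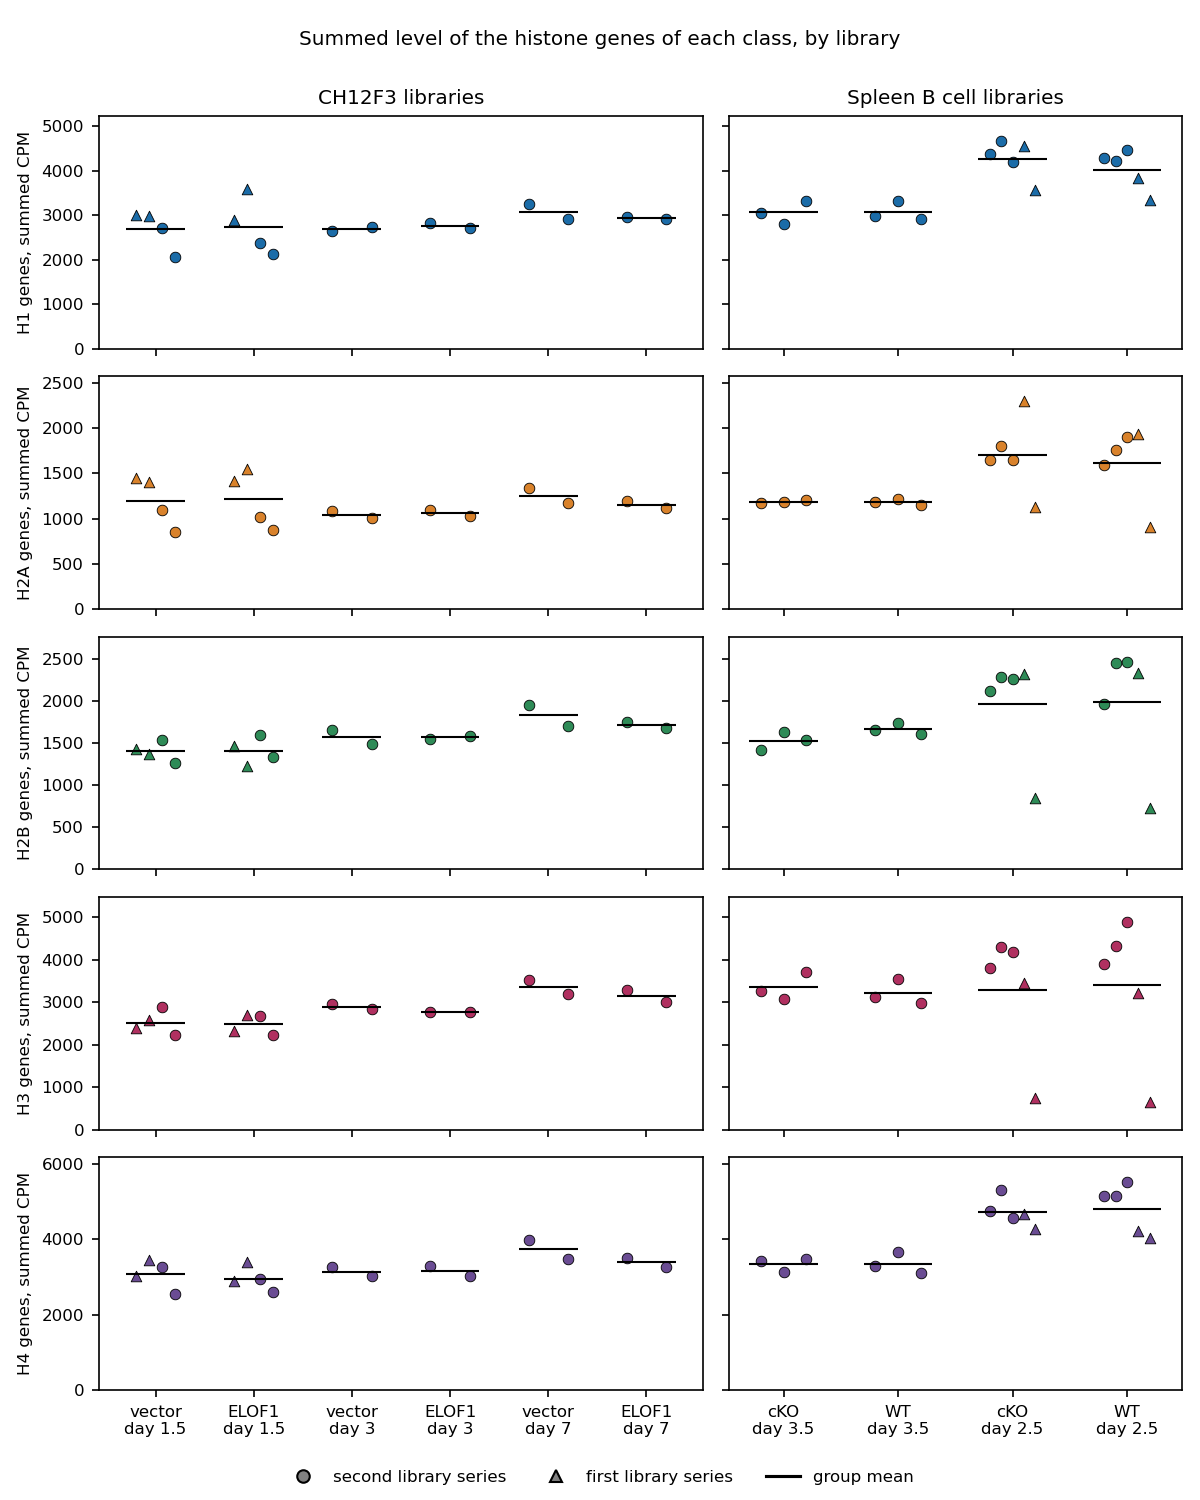
Summed CPM of the histone genes of each class (rows) in every library, by group, with CH12F3 on the left and spleen B cells on the right. Circles are second-series and triangles first-series libraries, and the line is the group mean. Genotype means lie close at each day, with class ratios of 0.918 to 1.10, the spleen sums are lower at day 3.5 than at day 2.5 for most classes, and replicate 5 of spleen day 2.5 stands low for H2B and H3.

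How much each gene contributed was compared per kilobase of counted span, since levels of different genes depend on length. The range was 0.730 to 1728 CPM per kb in CH12F3 (median 288) and 0.837 to 2081 CPM per kb in spleen (median 305). In CH12F3 41 members reached 100 CPM per kb and 9 stayed under 10, and in spleen 43 did and 8 stayed under 10. Hist1h4d, an H4 gene, was at the top in both systems, with 1728 CPM per kb in CH12F3 and 2081 in spleen. In the other classes the leading genes over both systems were Hist1h1e for H1 (1234 CPM per kb in CH12F3 and 1364 in spleen), Hist1h3c for H3 (905 and 1297), Hist1h2ak for H2A (731 and 943) and Hist1h2bg for H2B (626 and 503). In spleen alone Hist1h2bn led the H2B genes, with 603 CPM per kb, and Hist1h2bg ranked 4 among them. At the bottom were the H2B genes Hist1h2bq (0.730 and 0.837), Hist2h2be (1.19 and 1.43) and Hist1h2br (1.28 and 1.60). Their counted spans are 2217, 2620 and 2212 bases, and a longer span lowers a value per kb. Of the transcript stretches described above, 97.3% in Hist1h2bq and 88.7% in Hist1h2br also occur in another gene, mostly each other. The low values of that pair may therefore depend on how reads with several matches were counted. Hist2h2be shared none. By class sum, H4 genes held a median of 27.9% of the histone CPM in CH12F3 libraries, H3 24.9%, H1 23.98%, H2B 13.8% and H2A 9.51%. These shares may depend on how reads with several matches were counted.

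**Figure D3:**
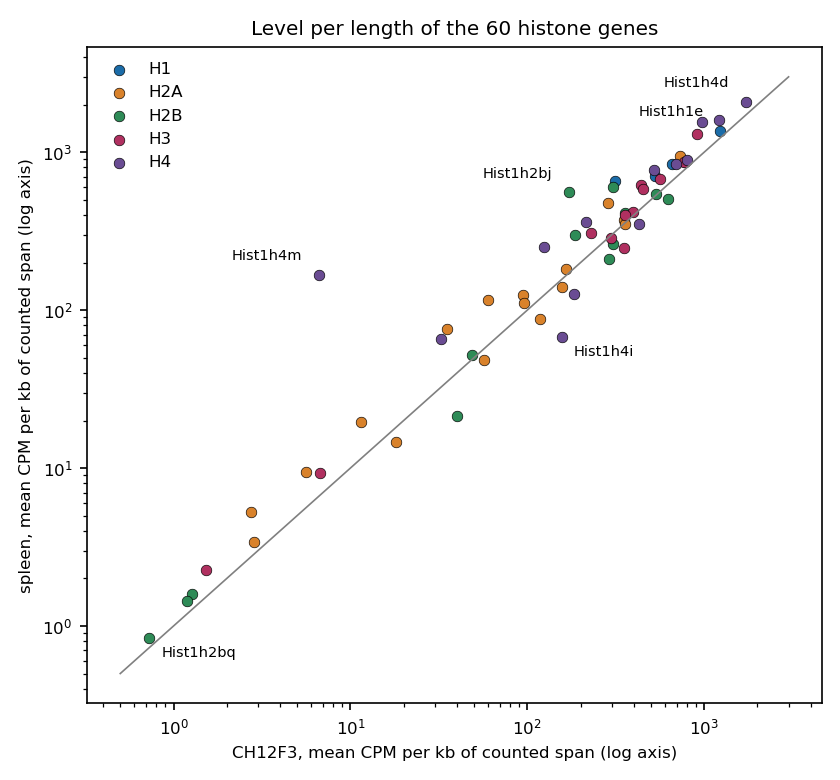
Mean level of each of the 60 histone genes per kilobase of counted span, CH12F3 on the horizontal and spleen on the vertical axis, both on log scales, coloured by class. The line marks equal levels, most genes lie near it, and Hist1h4m lies far above it.

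The tables of the 2 systems were made separately and share no library, so levels are set side by side as unscaled CPM (counts over the mouse total) and not tested. The median over the 16 libraries was higher in spleen for 47 of 60 members, against 41.6% of the 11398 mouse genes with a mean count of at least 10 in both tables. That limit left out Hist3h2ba, with mean counts of 1.88 in CH12F3 and 154.5 in spleen. Hist1h4m, an H4 gene, had 32.7 to 158 unscaled CPM in spleen (median 54.35) and 1.22 to 4.12 in CH12F3 (median 2.87), a ratio of 18.9 of the medians. Since 89.8% of its 50-base stretches also occur in Hist1h4n, the copy that gave these reads is uncertain. Hist1h4n itself had a median of 45.35 unscaled CPM in spleen and 68.04 in CH12F3. Ratios of medians above 2 in favour of spleen were also found for Hist1h2bj (3.43), Hist3h2a (2.07), Hist1h1c (2.03), Hist4h4 (2.02) and Hist1h2bn (2.01), which makes 6 of 60 members, near the 7.88% of all these genes. Hist1h4i went the other way, with 32.3 to 68.6 unscaled CPM in spleen and 70.2 to 146 in CH12F3. Of the 60 members, Hist1h4m, Hist3h2a and Hist1h1c (higher in spleen) and Hist1h4i (higher in CH12F3) had ranges that did not overlap. These are 4 of 60, a smaller share than the 20.3% of all these genes.

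The genotype comparisons ask whether loss of ELOF1 changed histone message levels. Differential expression was tested with edgeR's quasi-likelihood test on all genes, with Benjamini-Hochberg adjusted p below 0.05 as the threshold. With all libraries and the series term, none of the 60 members passed in any of the 5 comparisons. In CH12F3 that was 0 of 60 at day 1.5, where 1.15% of all genes were called, 0 of 60 at day 3 (0.00704% of all genes) and 0 of 60 at day 7 (0.0352%). In spleen it was 0 of 60 at day 2.5 (5.18% of all genes) and 0 of 60 at day 3.5 (2.07%). At an unadjusted p under 0.05 there were 7, 0 and 1 members at CH12F3 days 1.5, 3 and 7, against 13.4%, 4.2% and 5.7% of all genes. At spleen days 2.5 and 3.5 there were 2 and 1 members, against 2401 and 1808 of 13367 genes. DESeq2 called 1 member at spleen day 2.5, where it called 7.73% of all genes. It called 0 members in the other 4 comparisons, where it called 447, 13 and 27 of 14201 genes at CH12F3 days 1.5, 3 and 7 and 573 of 13367 at spleen day 3.5.

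Same-numbered libraries of the genotypes deviated together at each day of CH12F3 and, for replicates 4 and 5, at spleen day 2.5. Among replicates 1 to 3 of spleen day 2.5, libraries with different numbers were as alike as those with the same number. With the replicate number as a block some members passed at CH12F3 day 1.5 and spleen day 2.5. At CH12F3 day 1.5 there were 3, all lower in vector cells, where 8.6% of all genes were called. They were the H2A gene Hist3h2a (-0.26 ± 0.07, adjusted p 0.0372), the H1 gene Hist1h1b (-0.25 ± 0.07, adjusted p 0.0451) and the H2B gene Hist1h2bf (-0.23 ± 0.07, adjusted p 0.0456), in log2 fold change ± SE. At spleen day 2.5 there were 4 with the block, where 11.5% of all genes were called. Higher in cKO cells were the H1 gene Hist1h1a (0.25 ± 0.07, adjusted p 0.0236) and the H3 gene Hist2h3c1 (0.47 ± 0.14, adjusted p 0.034). Lower in cKO cells were the H3 gene Hist1h3h (-0.30 ± 0.07, adjusted p 0.0128) and the H4 gene Hist1h4a (-0.31 ± 0.07, adjusted p 0.00631). Both counts, 3 and 4 of 60, are smaller shares than those of all genes called.

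Median log2 fold changes of the 60 members were -0.02, -0.02 and 0.09 for vector over ELOF1 at days 1.5, 3 and 7, and 0.02 and -0.04 for cKO over WT at days 2.5 and 3.5. Over all genes tested they were between -0.005 and 0.013. With libraries scaled to the added fly RNA the members' medians were -0.13, -0.21 and -0.06 for vector over ELOF1 and -0.10 and -0.32 for cKO over WT, where the medians of all genes were -0.08, -0.19, -0.14, -0.14 and -0.29. The sign of the members' median thus changed at CH12F3 day 7 and spleen day 2.5. Class sums had ratios of vector to ELOF1 or cKO to WT between 0.918 (H2B, spleen day 3.5) and 1.10 (H4, CH12F3 day 7). The test of whether the genotype difference itself changed with time called 0 members and 0% of all genes in each of the 3 cases, day 3 and day 7 against day 1.5 in CH12F3 and day 3.5 against day 2.5 in spleen. At an unadjusted p under 0.05 it was 0, 0 and 1 members, against 1.2%, 1.9% and 2.1% of all genes, and DESeq2 called 0 members and 0 genes in each case.

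The member nearest to the threshold was Hist1h1a, a linker histone gene. It had 669.7, 702, 746, 714 and 747 CPM in cKO cells against 634, 636, 581, 511 and 648 CPM in WT cells at day 2.5. At day 3.5 Hist1h1a had 369.9, 381 and 407 CPM in cKO cells against 387, 383 and 384 CPM in WT cells. At day 2.5 the cKO libraries lay above the WT libraries without overlap, and at day 3.5 the groups overlapped. Its log2 fold change at day 2.5 was 0.25 ± 0.08 (SE) with an edgeR adjusted p of 0.0685, DESeq2 called it with an adjusted p of 0.0105, and without replicate 5 the edgeR value was 0.27 ± 0.07 with an adjusted p of 0.0134.

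Without replicate 5, 4 of 60 members passed at day 2.5, where 11.6% of all genes were called, so the members' share was below that of all genes. These were the same 4 genes as with the block. Hist2h3c1, a gene for H3 at a low level, had 20.6, 26.3, 26.03, 23.8 and 6.78 CPM in cKO cells against 15.5, 17.02, 16.2, 19.5 and 5.45 CPM in WT cells at day 2.5. At day 3.5 Hist2h3c1 had 13.7, 15.02 and 19.998 CPM in cKO cells against 14.4, 19.9 and 12.5 CPM in WT cells. Without replicate 5 the cKO libraries of day 2.5 lay above the WT libraries with no overlap. The log2 fold change was 0.51 ± 0.15 with an adjusted p of 0.0289, and all of its 50-base stretches also occur in another gene. Hist1h3h, also for H3, had 180.3, 197, 195, 161 and 53.6 CPM in cKO cells against 202, 272, 286, 177 and 58.7 CPM in WT cells at day 2.5. At day 3.5 Hist1h3h had 146, 134 and 135 CPM in cKO cells against 159, 144 and 136 CPM in WT cells. It was lower in cKO cells at day 2.5, with a log2 fold change of -0.34 ± 0.09 and an adjusted p of 0.0178, while the ranges of the 4 libraries overlapped. Hist1h4a, for H4, had 197, 224.8, 171, 157 and 224.3 CPM in cKO cells against 256, 257, 252, 185 and 251 CPM in WT cells at day 2.5. At day 3.5 Hist1h4a had 141, 135 and 117 CPM in cKO cells against 162, 160.4 and 139 CPM in WT cells. Its ranges overlapped at day 2.5, and the log2 fold change there was -0.34 ± 0.08 (adjusted p 0.0106). At day 3.5 0 of 60 passed without replicate 5, where 8.88% of all genes were called, and 9 had an unadjusted p under 0.05, as had 2922 of 13106 genes.

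With all libraries, 1 of 20 tested genes that make and process histone messages passed at spleen day 2.5, where 5.18% of all genes were called. It was Slbp, and 1 of 20 is near that share. Slbp, whose protein binds the stem-loop, had 113, 116, 105, 117 and 150.4 CPM in cKO cells and 86.7, 89.2, 84.0, 88.8 and 124 CPM in WT cells at day 2.5. The groups overlapped in 1 WT library, replicate 5. Slbp was higher in cKO cells, with a log2 fold change of 0.35 ± 0.09 and an edgeR adjusted p of 0.0344. At day 3.5 it had 98.2, 94.4 and 84.7 CPM in cKO cells and 74.0, 74.8 and 73.1 CPM in WT cells, without overlap, but the log2 fold change of 0.32 ± 0.12 had an adjusted p of 0.203. Npat, the coactivator of histone gene transcription, had a log2 fold change of 0.01 ± 0.14 at day 2.5 and -0.07 ± 0.18 at day 3.5. Of the 20, 0 were called at spleen day 3.5 (1 at an unadjusted p under 0.05) and 0 in CH12F3 at days 1.5, 3 and 7 (2, 0 and 0 at an unadjusted p under 0.05). Of 38 genes of S phase and DNA replication, Cdc6 and Uhrf1 were higher (log2 fold changes of 0.31 ± 0.08 and 0.27 ± 0.07, adjusted p 0.0346 and 0.0367) and Pola1 lower (-0.37 ± 0.07, adjusted p 0.00513) in cKO cells at day 2.5, so 3 of 38 passed beside 5.18% of all genes. At day 3.5 Cdk2 was higher in cKO cells (0.39 ± 0.09, adjusted p 0.0253), 1 of 38 beside 2.07% of all genes.

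The time comparison in spleen B cells asks how histone messages changed between day 2.5 and day 3.5 of stimulation. They were lower at day 3.5. In cKO cells the summed level was 12350, 11840 and 13260 CPM at day 3.5, against 16680, 18370, 16860, 17300 and 10550 CPM at day 2.5. In WT cells it was 12240, 13490 and 11750 CPM at day 3.5, against 16880, 17900, 19230, 15530 and 9662 CPM at day 2.5. Every day 3.5 library was below the other 4 day 2.5 libraries of its genotype and above replicate 5. The ratio of the group means was 0.782 in cKO and 0.789 in WT cells, and 0.721 and 0.719 without replicate 5. In bulk RNA, fewer cells in S phase and less histone RNA per cell cannot be told apart.

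In each genotype 14 of 60 members were lower at day 3.5 by edgeR, where 0.688% of all genes in cKO and 1.28% in WT cells were called lower, and none was higher. The median log2 fold change of the members was -0.55 in cKO and -0.49 in WT cells, with 0.00 and 0.01 over all genes tested. In cKO cells all 60 were negative, from -1.09 to -0.16, and in WT cells 57 were, from -0.81 to 0.21. Of the 16 members called in either genotype, 12 were called in both. Without replicate 5 the number was 46 in cKO and 45 in WT cells, where 5.65% and 6.4% of all genes were called lower, with medians of -0.54 and -0.50, and all 14 of each genotype were among them. With libraries scaled to the added fly RNA 2 members passed in cKO and 0 in WT cells where 0.15% and 0.165% of all genes were called lower. At an unadjusted p under 0.05 there were 48 and 29 members, against 1241 and 1098 of 13367 genes, with medians of -0.78 and -0.55 where all genes had -0.22 and -0.08. Leaving out 1 library at a time gave 6 to 17 calls in cKO and 6 to 16 in WT cells, fewest without replicate 3 of day 3.5 in each genotype. In cKO cells it gave 8 without replicate 1 of day 3.5 and 9 without replicate 2 of day 3.5 or replicate 1 or 2 of day 2.5. In WT cells it gave 9 without replicate 1 or 2 of day 3.5 or replicate 2 or 3 of day 2.5. The 2 time comparisons share no library, but they share the fit, its estimate of the spread and the term for library series.

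Fold changes of all members in every comparison are plotted by class.

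**Figure D4:**
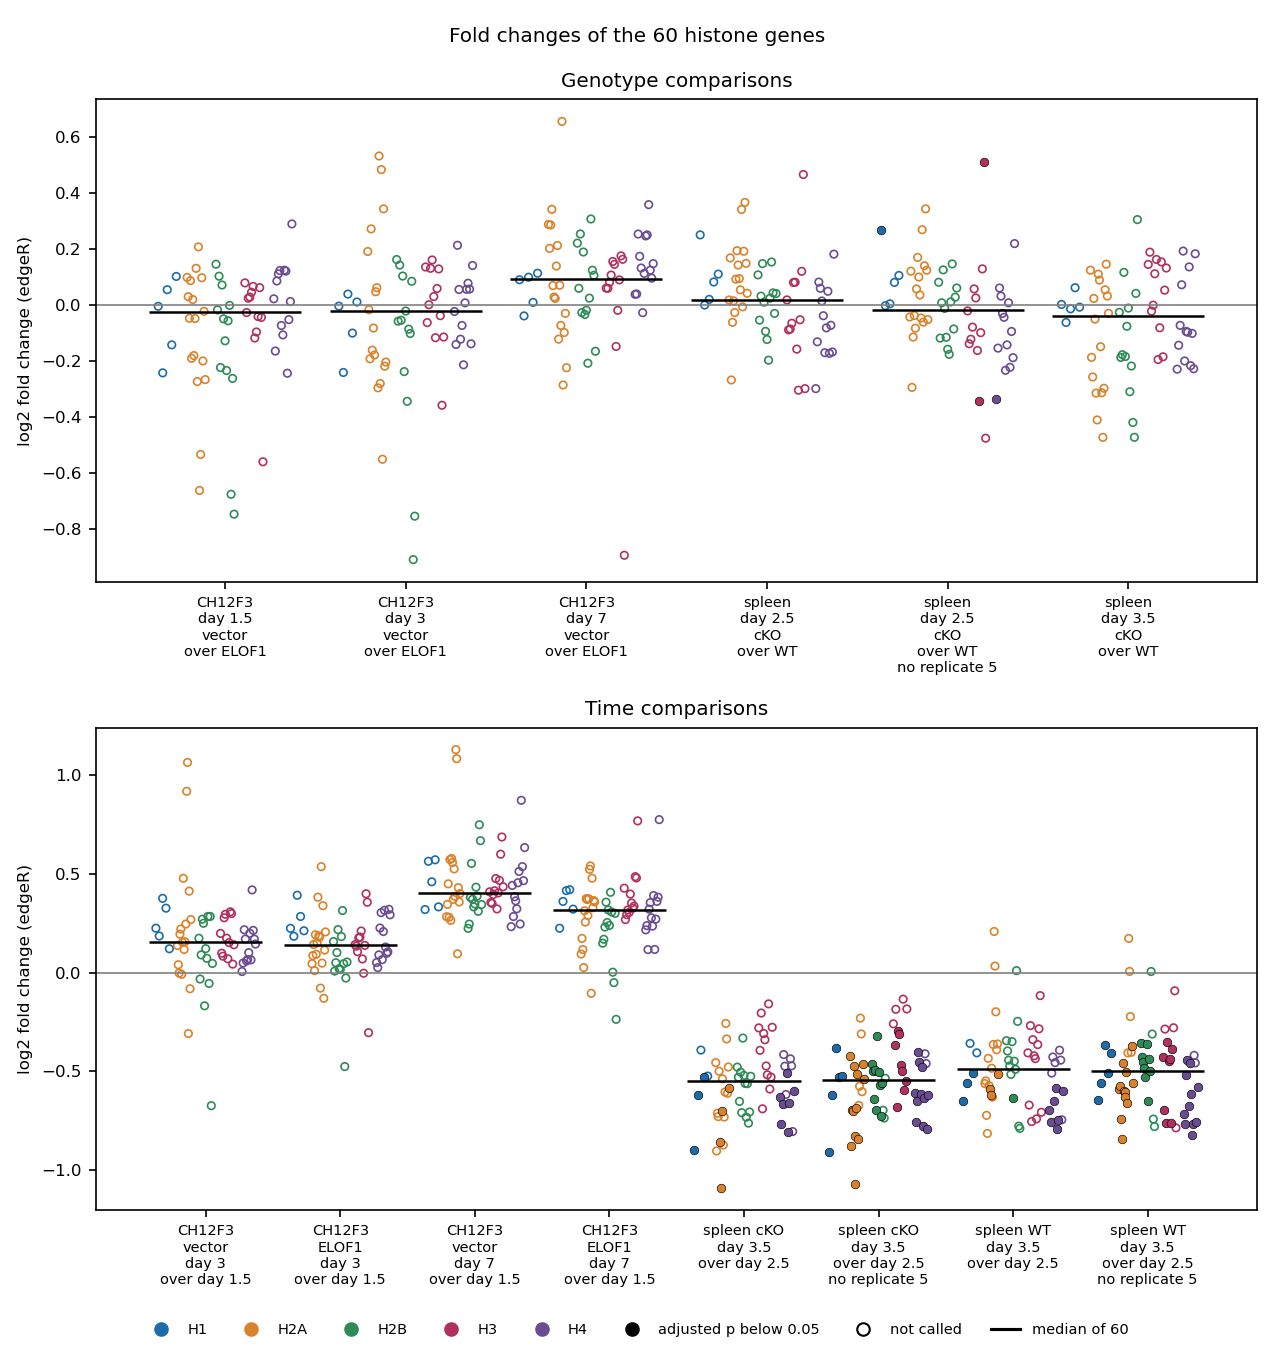
Log2 fold change of each of the 60 histone genes by edgeR, in the genotype comparisons (top) and the time comparisons (bottom). Colours are classes, filled points passed the adjusted p threshold of 0.05, lines are medians, and columns marked no replicate 5 leave out those 2 libraries. Members scatter about 0 between genotypes, with medians between -0.04 and 0.09 over all libraries, and lie almost all below 0 in both spleen time comparisons.

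Of the 5 H1 genes, 3 were lower at day 3.5 in each genotype with all libraries. Hist1h1a had 369.9, 381 and 407 CPM at day 3.5 against 669.7, 702, 746, 714 and 747 CPM at day 2.5 in cKO cells. In WT cells Hist1h1a had 387, 383 and 384 CPM at day 3.5 against 634, 636, 581, 511 and 648 CPM at day 2.5. Day 3.5 lay below day 2.5 without overlap in both genotypes, replicate 5 included. Its log2 fold change was -0.90 ± 0.09 in cKO cells (edgeR adjusted p 0.000155) and -0.65 ± 0.09 in WT cells (adjusted p 0.000993), and the difference between these steps was -0.25 ± 0.12 with an adjusted p of 1.0.

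Hist1h1b had 407, 370.3 and 452 CPM at day 3.5 against 612, 625, 628, 593 and 478 CPM at day 2.5 in cKO cells. In WT cells Hist1h1b had 430.1, 426 and 427 CPM at day 3.5 against 593, 634, 691, 549 and 478 CPM at day 2.5. The groups did not overlap, and the log2 fold changes were -0.62 ± 0.10 (cKO, adjusted p 0.00292) and -0.56 ± 0.10 (WT, adjusted p 0.00446). Hist1h1d passed as well, at -0.53 ± 0.10 in cKO (adjusted p 0.00915) and -0.51 ± 0.10 in WT cells (adjusted p 0.00961). Hist1h1e, the H1 gene with the highest level per kb, had 879, 797 and 952 CPM at day 3.5 against 1213, 1337, 1148, 1245 and 779 CPM at day 2.5 in cKO cells. In WT cells Hist1h1e had 845, 989 and 807 CPM at day 3.5 against 1253, 1123, 1196, 1031 and 728 CPM at day 2.5. Replicate 5 lay below the day 3.5 libraries and the other replicates above them in both genotypes. The log2 fold changes of -0.52 ± 0.15 and -0.41 ± 0.15 had adjusted p of 0.0785 in cKO and 0.152 in WT cells, and without replicate 5 they were -0.52 ± 0.09 (adjusted p 0.000781) and -0.41 ± 0.09 (adjusted p 0.00463). Hist1h1c, which has described polyadenylated transcripts, had 915, 839 and 979.6 CPM at day 3.5 against 1186, 1303, 1030, 1113 and 791 CPM at day 2.5 in cKO cells. In WT cells Hist1h1c had 875, 1024 and 859 CPM at day 3.5 against 1173, 1145, 1282, 1028 and 748 CPM at day 2.5. The order of the libraries was the same as for Hist1h1e. Its log2 fold changes of -0.39 ± 0.14 in cKO and -0.36 ± 0.14 in WT cells did not pass (adjusted p 0.153 and 0.163), and without replicate 5 they passed at -0.38 ± 0.09 and -0.37 ± 0.09 (adjusted p 0.00851 and 0.0102). In that setting all 5 H1 genes were lower in both genotypes.

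**Figure D5:**
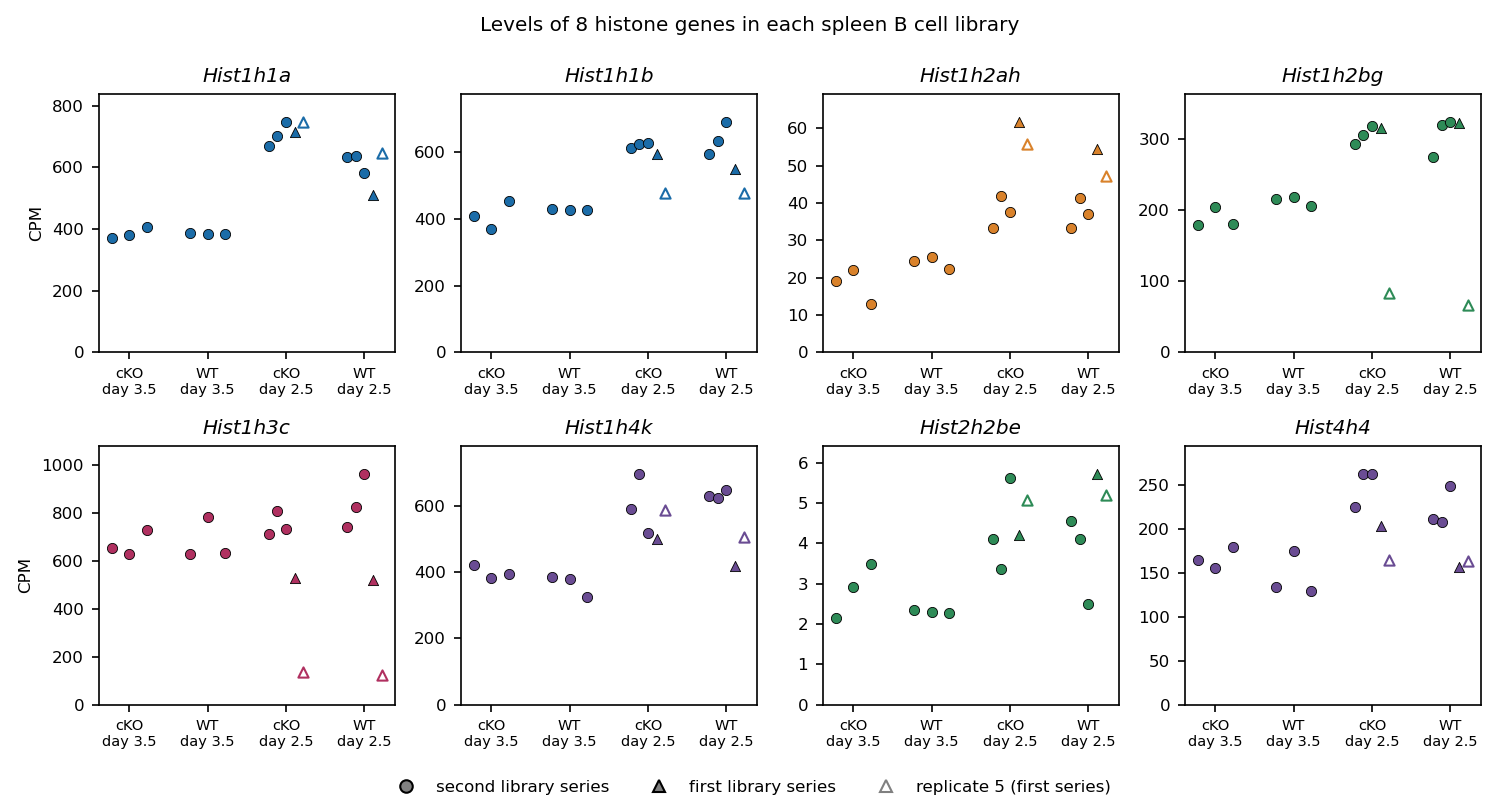
CPM of 8 histone genes in each spleen library, by group, with circles for the second series, filled triangles for replicate 4 and open triangles for replicate 5 of the first. Hist1h1a is lower at day 3.5 than in every day 2.5 library, and in Hist1h3c and Hist1h2bg the open triangles lie far below all other libraries.

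Among the 17 H2A genes, 4 were lower at day 3.5 in cKO and 3 in WT cells, and 12 in each genotype without replicate 5. Hist1h2ah had 19.2, 22.2 and 13.01 CPM at day 3.5 against 33.3, 41.7, 37.6, 61.8 and 55.8 CPM at day 2.5 in cKO cells. In WT cells Hist1h2ah had 24.4, 25.5 and 22.4 CPM at day 3.5 against 33.3, 41.2, 37.0, 54.5 and 47.3 CPM at day 2.5. Day 3.5 libraries were below all day 2.5 libraries, and first-series libraries were the highest at day 2.5. The log2 fold change was -1.09 ± 0.16 in cKO cells (adjusted p 0.00141), the largest fall of any member there, and -0.59 ± 0.15 in WT cells (adjusted p 0.0334). The difference between these steps was -0.50 ± 0.20 with an unadjusted p of 0.0243 and an adjusted p of 1.0. Hist3h2a, the sole member of its cluster, had 138, 116 and 151 CPM at day 3.5 against 188, 189, 192, 142 and 194 CPM at day 2.5 in cKO cells. In WT cells Hist3h2a had 152, 123 and 138 CPM at day 3.5 against 205, 206, 216.4, 121 and 148 CPM at day 2.5. In cKO cells replicate 4 of day 2.5 lay within the day 3.5 range, and in WT cells replicate 4 lay below it and replicate 5 within it. The log2 fold changes were -0.59 ± 0.14 in cKO (adjusted p 0.0284) and -0.51 ± 0.14 in WT cells (adjusted p 0.039).

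Hist1h2ak, the H2A gene with the highest level per kb, had 326, 318 and 361 CPM at day 3.5 against 446, 494, 472, 482 and 179 CPM at day 2.5 in cKO cells. In WT cells Hist1h2ak had 299.7, 339 and 305 CPM at day 3.5 against 403, 448, 511, 407 and 137 CPM at day 2.5. All 3 day 3.5 libraries lay between replicate 5 and the rest of day 2.5. With all libraries its log2 fold changes of -0.54 ± 0.31 in cKO and -0.48 ± 0.30 in WT cells had adjusted p of 0.435 and 0.440, and without replicate 5 they were -0.52 ± 0.09 and -0.50 ± 0.09, with adjusted p of 0.000623 and 0.000694. The fold change moved little, and its SE became smaller.

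H2B genes passed in few cases with all libraries, 0 of 13 in cKO (1 at an unadjusted p under 0.05) and 1 of 13 in WT cells (Hist1h2bk, -0.63 ± 0.16, adjusted p 0.0352), and in 10 and 9 of 13 without replicate 5. Hist1h2bg had 179, 204 and 181 CPM at day 3.5 against 293, 306, 319, 317 and 84.2 CPM at day 2.5 in cKO cells. In WT cells Hist1h2bg had 216.5, 218.3 and 206 CPM at day 3.5 against 275, 321, 325, 324 and 67.1 CPM at day 2.5. Day 3.5 was below replicates 1 to 4 and above replicate 5 in both genotypes. Its log2 fold change without replicate 5 was -0.70 ± 0.08 in cKO (adjusted p 7.92e-06) and -0.53 ± 0.08 in WT cells (adjusted p 0.000139), where all libraries gave adjusted p of 0.436 and 0.558. Hist1h2bc, with described polyadenylated transcripts, had 186, 191 and 178 CPM at day 3.5 against 252, 262, 255, 259 and 119 CPM at day 2.5 in cKO cells. In WT cells Hist1h2bc had 209.5, 220.3 and 201 CPM at day 3.5 against 245, 311, 308, 252 and 94.4 CPM at day 2.5. Here too replicate 5 was below day 3.5 and the other replicates above it. The adjusted p was 0.361 in cKO and 0.471 in WT cells with all libraries, and 0.000587 and 0.00175 without replicate 5, at log2 fold changes of -0.50 ± 0.08 and -0.43 ± 0.08. Hist2h2be, an H2B gene at a very low level here that is known for polyadenylated transcripts in cells that have stopped dividing, had 2.15, 2.91 and 3.49 CPM at day 3.5 against 4.12, 3.37, 5.62, 4.21 and 5.07 CPM at day 2.5 in cKO cells. In WT cells Hist2h2be had 2.34, 2.30 and 2.28 CPM at day 3.5 against 4.56, 4.12, 2.49, 5.73 and 5.204 CPM at day 2.5. In cKO cells the days overlapped, and in WT cells day 3.5 lay below day 2.5 without overlap. The log2 fold changes of -0.52 ± 0.26 in cKO and -0.79 ± 0.27 in WT cells did not pass (adjusted p 0.356 and 0.117), nor without replicate 5 (adjusted p 0.219 and 0.0719).

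For H3 no gene passed with all libraries (0 of 12 in each genotype, with 0 in cKO and 1 in WT cells at an unadjusted p under 0.05), and 8 of 12 passed in each genotype without replicate 5. The H3 sum averaged 3353 ± 325 CPM at day 3.5 and 3291 ± 1465 CPM at day 2.5 in cKO cells (SD, n = 3 and 5), and 3930 ± 378 CPM at day 2.5 without replicate 5. In WT cells it averaged 3210 ± 304 CPM at day 3.5 and 3392 ± 1646 CPM at day 2.5, and 4076 ± 704 CPM at day 2.5 without replicate 5. The ratio of day 3.5 to day 2.5 was thus 1.02 in cKO and 0.946 in WT cells with all libraries, and 0.853 and 0.788 without replicate 5. H3 was the class with the ratio nearest to 1 in both genotypes, where the ratios of H1, H2A, H2B and H4 without replicate 5 were 0.643 to 0.693 in cKO and 0.659 to 0.732 in WT cells. These ratios carry no term for the series. Replicate 4 of day 2.5 is a first-series library, and all day 3.5 libraries are second-series. Its H3 sums of 3457 CPM in cKO and 3215 CPM in WT cells lay below those of replicates 1 to 3. Those were 3800 to 4286 CPM in cKO and 3890 to 4885 CPM in WT cells. The H2A sums of replicate 4 (2299 and 1934 CPM) lay above those of replicates 1 to 3. Neither the difference between classes nor the part of the series in it was tested.

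Hist1h3c, the H3 gene with the highest level per kb, had 655, 629 and 728 CPM at day 3.5 against 711, 808, 732, 529 and 136 CPM at day 2.5 in cKO cells. In WT cells Hist1h3c had 627, 782 and 633 CPM at day 3.5 against 741, 825, 964, 522 and 124 CPM at day 2.5. Day 3.5 overlapped day 2.5, where replicate 4 was also low. Log2 fold changes of -0.20 ± 0.40 in cKO and -0.27 ± 0.39 in WT cells did not pass (adjusted p 0.872 and 0.789), and without replicate 5 they were -0.19 ± 0.10 (adjusted p 0.250) and -0.29 ± 0.10 (adjusted p 0.0595). For Hist1h3h the log2 fold changes without replicate 5 were -0.50 ± 0.10 in cKO (adjusted p 0.00297) and -0.76 ± 0.10 in WT cells (adjusted p 7.05e-05).

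The H4 genes held 7 of the 14 calls in each genotype with all libraries and 11 of 13 without replicate 5. Their class sum averaged 3336 ± 185 CPM at day 3.5 and 4705 ± 382 CPM at day 2.5 in cKO cells, and 3347 ± 277 CPM at day 3.5 and 4805 ± 647 CPM at day 2.5 in WT cells (SD, n = 3 and 5 each). These are ratios of 0.709 and 0.697. Hist1h4k had 419.9, 381 and 395 CPM at day 3.5 against 589, 696, 519, 501 and 587 CPM at day 2.5 in cKO cells. In WT cells Hist1h4k had 385, 379.8 and 324 CPM at day 3.5 against 630.3, 622, 648, 418 and 505 CPM at day 2.5. No day 3.5 library reached a day 2.5 library, and the log2 fold changes were -0.66 ± 0.12 in cKO (adjusted p 0.00732) and -0.74 ± 0.12 in WT cells (adjusted p 0.00241). The steepest H4 fall was that of Hist1h4j, at -0.81 ± 0.15 in cKO (adjusted p 0.00793) and -0.79 ± 0.15 in WT cells (adjusted p 0.00647).

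Hist4h4, alone on chromosome 6, had 164, 155 and 179 CPM at day 3.5 against 224.7, 262, 262, 203 and 165 CPM at day 2.5 in cKO cells. In WT cells Hist4h4 had 134, 175 and 129 CPM at day 3.5 against 211.1, 207.8, 248, 156 and 163 CPM at day 2.5. Replicate 4 and 5 in WT and replicate 5 in cKO cells overlapped the day 3.5 libraries, and the log2 fold changes were -0.60 ± 0.12 in both genotypes (adjusted p 0.0103 in cKO and 0.00908 in WT cells). Hist1h4d, the member with the highest level per kb, had 774, 697 and 833 CPM at day 3.5 against 938, 1070, 982, 914 and 454 CPM at day 2.5 in cKO cells. In WT cells Hist1h4d had 695, 790.1 and 705 CPM at day 3.5 against 984, 923, 1116, 808 and 403 CPM at day 2.5. Replicate 5 was below day 3.5 and the other replicates above it in both genotypes. It passed without replicate 5, at -0.40 ± 0.09 in cKO (adjusted p 0.00495) and -0.44 ± 0.09 in WT cells (adjusted p 0.00229), and not with all libraries (adjusted p 0.393 and 0.318).

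With all libraries, lists of genes that accompany histone synthesis had smaller median differences between these days. Their calls without replicate 5 are not given. Of 38 genes of S phase and DNA replication, 0 were lower in cKO cells, where 0.688% of all genes were called lower, and 5 in WT cells, where 1.28% were. At an unadjusted p under 0.05 there were 8 and 16, against 15.8% of all genes in cKO and 18.3% in WT cells. The median log2 fold changes were -0.12 and -0.18. The 5 were the replication genes Pold1 (-0.46), Pola1 (-0.36), Mcm2 (-0.35), Lig1 (-0.34) and Uhrf1 (-0.31). None of 20 genes for histone message synthesis and processing passed in either genotype (medians -0.10 in cKO and -0.16 in WT cells, 2 and 3 at an unadjusted p under 0.05, shares below those of all genes), and none of 22 histone chaperone genes did (medians -0.13 and -0.20, also 2 and 3). Slbp had log2 fold changes of -0.26 ± 0.11 in cKO and -0.23 ± 0.11 in WT cells (adjusted p 0.252 and 0.278).

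Replication-independent variants, which are made outside S phase as well, gave no call among 10 tested genes with all libraries. The number at an unadjusted p under 0.05 was 0 in cKO and 1 in WT cells, and the medians were -0.08 and -0.20. H2afx, whose protein is phosphorylated at DNA breaks, averaged 546 ± 13.04 CPM at day 3.5 and 587 ± 176 CPM at day 2.5 in cKO cells. In WT cells it averaged 540.2 ± 38.4 CPM at day 3.5 and 597 ± 208.6 CPM at day 2.5 (SD, n = 3 and 5 each). Its message can also end in a stem-loop, and its replicate 5 value was 283 CPM for cKO and 249 CPM for WT cells. H3f3b, a gene for the replacement H3 whose messages are polyadenylated, was at its highest in replicate 5, with 946 CPM in cKO and 870.4 CPM in WT cells, where the others had 472 to 663 CPM in cKO and 397 to 620 CPM in WT cells. H3f3a, also a gene for the replacement H3, was not raised in replicate 5. It had 307.2 CPM there in cKO cells, where the others had 213.7 to 434.7 CPM. In WT cells it had 279.2 CPM, where the others had 210.7 to 451.0 CPM. The part of a poly(A) tail in these values was not tested. H2afz, a variant of H2A, had log2 fold changes of -0.17 ± 0.15 in cKO and -0.31 ± 0.15 in WT cells (adjusted p 0.658 and 0.283), and H1f0, a linker histone of cells that have stopped dividing, of 0.39 ± 0.21 and 0.64 ± 0.20 (adjusted p 0.411 and 0.0881).

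Markers of other cells were low in the spleen libraries. The summed level of 5 myeloid markers was 9.03 to 15.5 CPM at day 3.5 and 7.55 to 13.1 CPM at day 2.5 in cKO cells, and 5.03 to 7.84 CPM at day 3.5 and 3.97 to 18.9 CPM at day 2.5 in WT cells. Csf3r, a myeloid receptor, passed at day 3.5 over day 2.5 with 2.15 ± 0.42 in cKO (adjusted p 0.00874) and 2.46 ± 0.46 in WT cells (adjusted p 0.00631) on the log2 scale, at mean levels of 2.54 CPM at day 3.5 and 1.13 CPM at day 2.5 in cKO cells, and 1.95 and 0.847 CPM in WT cells. Csf3r had 2 to 34 counts per spleen library. Its fold changes were fitted with the term for the series and its means were not, so they differ in size. Its part in the result was not tested.

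In CH12F3 cells the time comparison runs over day 1.5, day 3 and day 7, and the comparisons of day 3 and day 7 share the day 1.5 libraries. No member passed by edgeR. In vector cells it was 0 of 60 at day 3 (0.00704% of all genes called) and 0 of 60 at day 7 (0.169%), and in ELOF1 cells 0 of 60 at day 3 (0.00704%) and 0 of 60 at day 7 (0.0493%). At an unadjusted p under 0.05 there were 5 and 41 members in vector cells at days 3 and 7 and 4 and 27 in ELOF1 cells, against 6.0%, 8.6%, 4.2% and 7.6% of all genes. DESeq2 called 10 members higher at day 7 in vector cells, where it called 0.451% of all genes higher, and 2 in ELOF1 cells (0.282%). At day 3 it called 0 members in both genotypes, where it called 14 genes higher in vector and 5 in ELOF1 cells. Leaving out replicate 1 of day 1.5 gave 1 call at day 7 in vector cells.

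Direction was more uniform than the calls. The median log2 fold change over day 1.5 was 0.16 at day 3 and 0.40 at day 7 in vector cells, and 0.14 at day 3 and 0.32 at day 7 in ELOF1 cells, with medians between -0.01 and 0.004 over all genes. Scaled to the fly RNA the members' medians were 0.02 and 0.41 in vector cells, where all genes had -0.15 and -0.02, and 0.11 and 0.37 in ELOF1 cells, where all genes had -0.04 and 0.03. At day 7 all 60 members were positive in vector cells and 57 in ELOF1 cells, against 49.4% and 48.8% of all genes. This rested in part on the term for the series. Without it 47 members were positive at day 7 in vector and 42 in ELOF1 cells, with medians of 0.29 and 0.14, and 23 and 18 members had an unadjusted p under 0.05. At day 3 the medians without it were 0.045 in vector and 0.07 in ELOF1 cells. Summed levels were 11290, 11790, 11480 and 8938 CPM at day 1.5, 11590 and 11100 CPM at day 3, and 14050 and 12460 CPM at day 7 in vector cells. In ELOF1 cells they were 11000, 12480, 10590 and 9161 CPM at day 1.5, 11500 and 11110 CPM at day 3, and 12700 and 11990 CPM at day 7. Vector libraries of day 7 lay above all of day 1.5, and ELOF1 libraries overlapped. The ratio of day 7 to day 1.5 was 1.22 in vector and 1.14 in ELOF1 cells over all libraries and 1.30 and 1.25 within the second series.

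The smallest adjusted p at day 7 were those of Hist1h2af, an H2A gene, in vector cells (log2 fold change 0.57 ± 0.11, adjusted p 0.0653) and of Hist4h4 in ELOF1 cells (0.77 ± 0.15, adjusted p 0.0856). Hist4h4 had 129, 97.1, 82.8 and 67.7 CPM in vector cells against 83.0, 77.8, 74.4 and 66.7 CPM in ELOF1 cells at day 1.5. At day 3 Hist4h4 had 94.3 and 84.2 CPM in vector cells against 83.4 and 78.3 CPM in ELOF1 cells. At day 7 Hist4h4 had 134 and 116 CPM in vector cells against 111 and 115 CPM in ELOF1 cells. In ELOF1 cells day 7 lay above every day 1.5 library, and in vector cells it lay above all of them but replicate 1. The value in vector cells was 0.63 ± 0.15 (adjusted p 0.114). Hist1h1b had 373, 308, 349.9 and 283 CPM in vector cells against 395, 443, 375 and 343 CPM in ELOF1 cells at day 1.5. At day 3 Hist1h1b had 354 and 351 CPM in vector cells against 409 and 424 CPM in ELOF1 cells. At day 7 Hist1h1b had 483 and 435 CPM in vector cells against 466 and 476 CPM in ELOF1 cells. Its log2 fold changes at day 7 were 0.56 ± 0.11 in vector cells (adjusted p 0.0695) and 0.36 ± 0.12 in ELOF1 cells (adjusted p 0.399), and day 7 lay above every day 1.5 library in both genotypes. Vector cells were below ELOF1 cells in each same-numbered pair of libraries at day 1.5 and day 3, and the genotype log2 fold change at day 1.5 was -0.24 ± 0.09 (adjusted p 0.232, and 0.0451 with the replicate block).

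Markers of myeloid cells moved with day in CH12F3. Their summed level was 46.9 to 104 CPM at day 1.5, 60.1 and 140.3 CPM at day 3 and 136 and 235 CPM at day 7 in vector cells. In ELOF1 cells it was 55.6 to 78.0 CPM at day 1.5, 61.0 and 103 CPM at day 3 and 124 and 174 CPM at day 7. Csf1r and Adgre1 made up most of it, and its part in the histone values was not tested.

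The other members chosen by class leadership or by polyadenylated transcripts had no call in the CH12F3 time comparisons, and their values follow by class. Hist1h1a had 509.7, 484, 534 and 376 CPM in vector cells against 458, 584, 476 and 396 CPM in ELOF1 cells at day 1.5. At day 3 Hist1h1a had 577 and 463 CPM in vector cells against 559.6 and 483 CPM in ELOF1 cells. At day 7 Hist1h1a had 636 and 475 CPM in vector cells against 545 and 497 CPM in ELOF1 cells. The genotypes overlapped at each day. Hist1h1e had 956, 1031, 983 and 736 CPM in vector cells against 911, 1096, 784 and 692 CPM in ELOF1 cells at day 1.5. At day 3 Hist1h1e had 886 and 910.4 CPM in vector cells against 927 and 856 CPM in ELOF1 cells. At day 7 Hist1h1e had 1101 and 981 CPM in vector cells against 971 and 952 CPM in ELOF1 cells. The genotypes overlapped except at day 7, where both vector libraries were above both ELOF1 libraries. Hist1h1c had 544, 535, 446 and 364 CPM in vector cells against 535, 576, 371 and 358 CPM in ELOF1 cells at day 1.5. At day 3 Hist1h1c had 449.9 and 568 CPM in vector cells against 486 and 504 CPM in ELOF1 cells. At day 7 Hist1h1c had 531 and 548 CPM in vector cells against 506 and 501 CPM in ELOF1 cells. First-series libraries, replicates 1 and 2, were the highest at day 1.5, and the log2 fold changes at day 7 were 0.46 ± 0.11 in vector (adjusted p 0.139) and 0.42 ± 0.12 in ELOF1 cells (adjusted p 0.311).

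Among the H2A genes, Hist1h2ah had 48.3, 61.2, 37.9 and 32.7 CPM in vector cells against 52.9, 64.8, 46.9 and 37.5 CPM in ELOF1 cells at day 1.5. At day 3 Hist1h2ah had 44.2 and 36.6 CPM in vector cells against 45.8 and 45.5 CPM in ELOF1 cells. At day 7 Hist1h2ah had 59.4 and 49.0 CPM in vector cells against 56.0 and 50.5 CPM in ELOF1 cells. The genotypes overlapped at days 1.5 and 7, and vector cells were below ELOF1 cells at day 3. Vector cells were also below ELOF1 cells in each of the 4 same-numbered pairs at day 1.5, at a log2 fold change of -0.18 ± 0.12 (adjusted p 0.588). Hist1h2ak had 302, 281, 318 and 227.02 CPM in vector cells against 267, 278, 262 and 222.9 CPM in ELOF1 cells at day 1.5. At day 3 Hist1h2ak had 313 and 270.3 CPM in vector cells against 294 and 265 CPM in ELOF1 cells. At day 7 Hist1h2ak had 370.2 and 326 CPM in vector cells against 311 and 289 CPM in ELOF1 cells. Day 7 was above day 1.5 in both genotypes, and vector cells were above ELOF1 cells at day 7, at a log2 fold change of 0.21 ± 0.15 (adjusted p 0.982). Hist3h2a had 57.4, 46.8, 64.2 and 66.6 CPM in vector cells against 73.5, 60.4, 71.6 and 75.9 CPM in ELOF1 cells at day 1.5. At day 3 Hist3h2a had 72.6 and 80.1 CPM in vector cells against 83.9 and 91.8 CPM in ELOF1 cells. At day 7 Hist3h2a had 74.0 and 93.2 CPM in vector cells against 97.5 and 97.8 CPM in ELOF1 cells. Vector cells were below ELOF1 cells in each same-numbered pair, at a log2 fold change at day 1.5 of -0.27 ± 0.10 (adjusted p 0.252, and 0.0372 with the replicate block).

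Among the H2B genes, Hist1h2bg had 272, 309.9, 288 and 241 CPM in vector cells against 269, 238, 297 and 252 CPM in ELOF1 cells at day 1.5. At day 3 Hist1h2bg had 341 and 316 CPM in vector cells against 294 and 318 CPM in ELOF1 cells. At day 7 Hist1h2bg had 373 and 343 CPM in vector cells against 322 and 305 CPM in ELOF1 cells. Vector cells were above ELOF1 cells at day 7, at a log2 fold change of 0.19 ± 0.13 (adjusted p 0.982), and the genotypes overlapped at the other days. Hist1h2bc had 121, 139.9, 139.9 and 122 CPM in vector cells against 122, 143, 147 and 117 CPM in ELOF1 cells at day 1.5. At day 3 Hist1h2bc had 138 and 118 CPM in vector cells against 138 and 129 CPM in ELOF1 cells. At day 7 Hist1h2bc had 159 and 152 CPM in vector cells against 160.2 and 138 CPM in ELOF1 cells. The genotypes overlapped at each day. Hist2h2be had 3.36, 1.63, 2.40 and 2.21 CPM in vector cells against 4.85, 4.39, 4.08 and 2.91 CPM in ELOF1 cells at day 1.5. At day 3 Hist2h2be had 2.27 and 2.23 CPM in vector cells against 4.43 and 3.17 CPM in ELOF1 cells. At day 7 Hist2h2be had 3.599 and 1.99 CPM in vector cells against 2.69 and 3.51 CPM in ELOF1 cells. At these low levels, vector cells were below ELOF1 cells in each same-numbered pair at days 1.5 and 3, with a log2 fold change at day 1.5 of -0.75 ± 0.27 (adjusted p 0.238).

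The H3 gene Hist1h3c had 339, 397, 487 and 373 CPM in vector cells against 339.8, 398, 445 and 385 CPM in ELOF1 cells at day 1.5. At day 3 Hist1h3c had 453 and 449.9 CPM in vector cells against 436 and 466 CPM in ELOF1 cells. At day 7 Hist1h3c had 575 and 512 CPM in vector cells against 542 and 485 CPM in ELOF1 cells. Day 7 was above every day 1.5 library in both genotypes, at a log2 fold change in vector cells of 0.35 ± 0.13 (adjusted p 0.389). The H4 gene Hist1h4d had 607, 686, 714 and 561 CPM in vector cells against 570.2, 638, 611 and 557 CPM in ELOF1 cells at day 1.5. At day 3 Hist1h4d had 735 and 693 CPM in vector cells against 719 and 654 CPM in ELOF1 cells. At day 7 Hist1h4d had 871 and 785 CPM in vector cells against 749.9 and 717 CPM in ELOF1 cells. Day 7 was again above day 1.5 in both genotypes, at 0.38 ± 0.11 in vector cells (adjusted p 0.245). Hist1h4k had 329, 409.6, 445 and 327 CPM in vector cells against 333, 386, 352 and 318 CPM in ELOF1 cells at day 1.5. At day 3 Hist1h4k had 409 and 376 CPM in vector cells against 389 and 366 CPM in ELOF1 cells. At day 7 Hist1h4k had 464 and 426 CPM in vector cells against 381 and 367 CPM in ELOF1 cells. Here the days overlapped, with 0.25 ± 0.14 for day 7 over day 1.5 in vector cells (adjusted p 0.694), and vector cells were above ELOF1 cells at day 7, at 0.25 ± 0.15 (adjusted p 0.943).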

How the data were processed

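Total RNA depleted of ribosomal RNA was sequenced in 32 libraries, 16 of CH12F3 cells and 16 of spleen B cells, with fly S2 RNA added in a fixed ratio to cell number, per the labels' protocols. The values are raw read counts per gene, which the authors deposited as 1 table per system with 43345 mouse and 17509 fly genes. Per the submitters' processing notes, Bowtie2 and featureCounts were used with genome builds mm10 (mouse) and dm6 (fly). Strand setting, gene release and the handling of reads with several matches are not stated there. Fly counts were 2.15% to 8.39% of mouse counts and entered no test except as a scaling. The 884 mouse genes without a symbol held 0.355% to 0.470% of the counts and stayed in the tests. The 60 members and the gene lists were chosen with earlier results of these data known.

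Genes passed filterByExpr (minimum count 10), leaving 14201 in CH12F3 and 13367 in spleen (13106 without replicate 5). One quasi-likelihood fit per system (edgeR 4.0.16, R 4.3.3, limma 3.58.1) held group and library series, with TMM scaling, and p-values were adjusted by Benjamini-Hochberg over all genes. DESeq2 1.42.0 was an alternative, as were RLE scaling, scaling to the fly counts, no filter, no series term, 1 series alone, a replicate block and leaving out each library. The setting without both replicate 5 libraries of spleen day 2.5 was chosen after the data were seen. The code was tested on simulated counts. Levels used Python 3.11.15 with pandas 2.3.3 and NumPy 2.4.6, and figures matplotlib 3.10.9. Stem-loops were read from GENCODE M21 transcripts and promoter windows from RefSeq. The counted span of a gene in values per kb is the length in the deposited table. First and last base of the gene there equal those of M21 for 40 of the 60 members, and lengths were not compared.

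Same-numbered libraries of the 2 genotypes were compared by the correlation of their deviations from the group means over the tested genes. It was 0.636 to 0.672 in the 4 pairs of CH12F3 day 1.5 and 0.279 to 0.796 in the 5 pairs of spleen day 2.5, so the numbers were taken to pair these libraries, since each pair was above 0.1. Different-numbered libraries reached 0.514 among replicates 1 to 3 of spleen day 2.5, where same-numbered ones had 0.279 to 0.41, so the numbers do not set these 3 apart. At spleen day 3.5 the correlation was 0.070, -0.281 and -0.122, and there the numbers were not taken to pair the libraries. At CH12F3 days 3 and 7, with 2 libraries a group, same-numbered libraries had 0.498 and 0.337. Different-numbered ones had -0.498 and -0.337 there.

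Values in every library are given for the members called in a comparison (at most 6 per genotype and 3 per time comparison, by p), the leading member of each class by CPM per kb, and 5 members with described polyadenylated transcripts. Hist1h1d, Hist1h2af, Hist1h2bf, Hist1h2bk, Hist1h3e, Hist1h3h, Hist2h3c1, Hist1h4a, Hist1h4i, Hist1h4j and Hist1h4m, other members named for levels or ratios, and called genes of the lists beyond 3 per comparison are named after their values were seen.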

Additional observations from a re-analysis of the deposited data

Results flagged for a closer look

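The lowest library was set far apart from the rest of its group in 12 of 80 groups of values checked, by the gap to its nearest neighbour over the range of the group (Dixon's test at the 95% level). Chance gives about 1 in 20, or 4.0 of 80, and the values are not independent, since 11 of the 12 come from replicate 5 of spleen day 2.5. In cKO cells replicate 5 stood apart with a summed histone level of 10550 CPM, an H2B sum of 846 CPM and an H3 sum of 737 CPM. It also stood apart there for Hist1h1b (478 CPM), Hist1h2ak (179 CPM), Hist1h2bc (119 CPM), Hist1h2bg (84.2 CPM) and Hist1h4d (454 CPM). In WT cells it stood apart with an H2B sum of 732 CPM and with 137 CPM of Hist1h2ak and 67.1 CPM of Hist1h2bg. The remaining value was Hist3h2a in replicate 4 of cKO day 2.5, at 142 CPM.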

How the results depend on the processing

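Under the alternatives, 178 counts of called members stayed within 1.5 times the count reported and 33 did not. A count of 0 that stayed 0 is among the 178. Only day 3.5 over day 2.5 in spleen had calls with the main settings, 14 in each genotype. Those counts moved under several alternatives, given below. With the replicate block the calls were 3 at CH12F3 day 1.5, 4 at spleen day 2.5 and 2 at spleen day 3.5 (both lower in cKO cells), and 0 at CH12F3 days 3 and 7. The block changed no call on the difference between days, and at spleen day 3.5 the numbers do not pair the libraries. At spleen day 2.5 DESeq2 gave 1 call, the second library series alone 2, leaving out both replicate 5 libraries 4, and leaving out 1 library 0 to 1 (1 without replicate 5 of cKO or of WT). For day 3.5 over day 2.5, calls in cKO and WT cells were 2 and 0 with fly RNA scaling, 40 and 39 with no filter, 8 and 5 without the series term, 42 and 44 in the second series alone, and 46 and 45 without both replicate 5 libraries. Leaving out 1 library gave 6 to 17 in cKO and 6 to 16 in WT cells. Without both replicate 5 libraries 5.65% and 6.4% of all genes were called lower, against 0.688% and 1.28% with all libraries. No share of all genes is given here for the other settings of the spleen time comparison but fly RNA scaling (0.15% and 0.165%). None is given for any count with no filter, in 1 series alone or with the block at spleen day 3.5. Those counts cannot be set against all genes. For day 7 over day 1.5 in CH12F3, vector cells had 11 calls with no filter, 10 by DESeq2 and 0 to 1 with 1 library left out, and ELOF1 cells had 1 and 2 by the first 2 of these. Where that left 1 library in a group, it was assumed to vary like the others. With fly RNA scaling the median at CH12F3 day 3, vector over ELOF1, was -0.21. Hist1h3c changed sign without the series term, at 0.20 in cKO and 0.10 in WT cells. The causes were not tested, apart from the smaller number of libraries or genes in some settings.

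In CH12F3 days 3 and 7 have 2 libraries a group. Shared sequence limits single core histone genes, and counts at low levels (Hist2h2be, Hist2h3c1) carry counting error of their own.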
